A study of Mus musculus with 8 samples.

Results

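Short-term hematopoietic stem cells (ST-HSC) were compared with long-term hematopoietic stem cells (LT-HSC), across all genes, on microarrays of RNA from cells sorted out of mouse bone marrow. The comparison used the 3 ST-HSC arrays and the 2 LT-HSC arrays of a series of 8, assigned by sample title. The remaining 3 arrays, of multipotent progenitors (MPP), entered the model only for its estimate of the spread between arrays and are shown beside the results. All probe sets with exactly 1 gene symbol were used, with the probe set of highest mean over the 8 arrays standing for its gene. That gave 22180 genes, of which 17576 reached a mean log2 signal of 3.88, the 25th percentile of all probe sets, and were tested.

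All samples came from C57/Bl6 mice listed at 8 weeks of age, with no altered allele named in the labels. Every population was sorted as lineage-negative (no markers of mature blood cells), Sca1-positive and Kit-positive. LT-HSC were in addition CD48-, CD150+ and CD34-, and ST-HSC differed from them in the gate by CD34 alone, being CD34+. MPP were CD48+, CD150- and CD34+. The labels contradict each other on treatment. Each sample is described as not treated, while a protocol shared by all samples describes cells that were exposed to DMSO, a solvent, for 2 hours, then passed through primary recipients for 1 year and secondary recipients for 3 months before RNA extraction. Which of these held for these arrays could not be settled from the labels, and the same wording stands on every population. The labels do not say whether replicates were separate mice or pools, so the p-values reflect only how much these samples varied, and that variation may be technical. They bear on LT-HSC through 2 arrays only, replicates 1 and 3.

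As background, LT-HSC are the marrow cells able to rebuild all blood lineages for the life of a transplanted animal, and most of them are at rest outside the cell cycle. ST-HSC descend from them, enter the cycle more readily and sustain blood formation for a limited time. Cells in S, G2 and M phase transcribe a shared program of replication and division genes that resting cells repress, in part through the DREAM complex, which acts on promoter elements named CHR and E2F sites. In RNA from a sorted population, more cells in cycle and more RNA per cycling cell cannot be told apart.

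The array medians lay between 4.95 and 5.22 on the log2 scale. The interquartile range of LT-HSC replicate 1 was 2.49 and that of ST-HSC replicate 1 was 2.73, against 2.82 to 3.06 on the other 6 arrays. The same arrays had the lowest median correlation with the rest, 0.956 and 0.968, against 0.976 to 0.985, so counts and list medians are also given below without them. The gate genes were checked on the arrays, which measure RNA and not surface protein. Kit signal was 10.26 and 10.25 in LT-HSC and 9.84, 10.18 and 10.40 in ST-HSC, above 98.6% of genes on average. Slamf1, which encodes CD150, stood between 7.25 and 7.78 on the 5 HSC arrays and averaged 5.06 ± 0.36 (SD, n = 3) in MPP. Cd48, whose protein both HSC populations were sorted to lack, had a difference of 0.58 that was not called (limma adjusted p = 0.612). Cd34 was 8.50 and 10.20 in LT-HSC and 9.55, 10.15 and 10.07 in ST-HSC. LT-HSC replicate 3 thus carried as much Cd34 signal as the highest ST-HSC array, while LT-HSC replicate 1 lay below all of them. The difference for Cd34, 0.57 ± 0.39 (SE), did not pass the test (limma adjusted p = 0.62), and it was -0.28 without LT-HSC replicate 1. The RNA of the gene that defined the split therefore did not separate these arrays, and Ly6a, which encodes Sca1, had no probe set matched to its symbol.

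The genes that passed the test between ST-HSC and LT-HSC were mostly those of the dividing cell. In ST-HSC, 149 genes were higher and 15 were lower at a Benjamini-Hochberg adjusted p under 0.05 in limma, which is 0.848% and 0.0853% of the genes tested and 0.933% together. Of the 149, 116 (77.9%) belonged to 12 lists of cell cycle genes, which hold 280 of the 17576 genes tested. The lists were chosen with earlier results of these data known, so this share describes the calls and is not a test. No member of those lists was called lower, 270 of the 280 differences were positive, and their median was 1.01. The genes called lower included the stem cell gene Sult1a1, the focal adhesion gene Tns2 and the imprinted RNAs Meg3 and Rian. The genes called higher outside the cell cycle included the megakaryocyte receptors Itga2b and Gp5.

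Most genes differed little. The median difference over all genes was 0.02 on the log2 scale, the middle 50% of genes lay between -0.16 and 0.23, and 52% of differences were positive. Differences above 1, a doubling, were found for 230 genes, of which 135 were called. Differences below -1 were found for 37 genes, of which 12 were called. The called higher genes were shifted by 0.83 to 2.40, with a median of 1.44, and the called lower genes by 0.88 to 2.32 in size, with a median of 1.25. At an unadjusted p under 0.05 there were 1943 genes, 1372 higher and 571 lower.

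**Figure D1:**
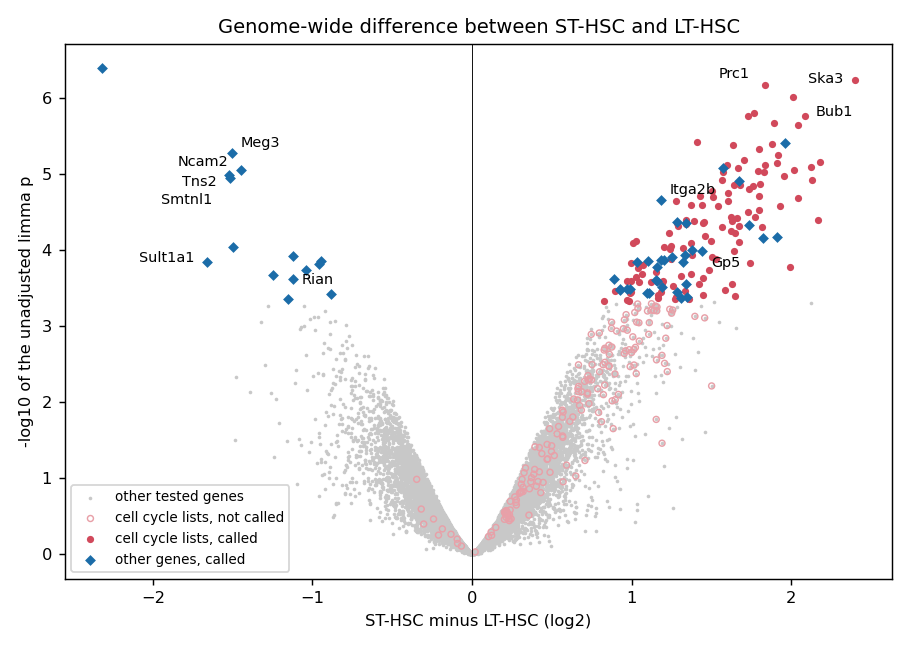
Each point is a tested gene, with the ST-HSC minus LT-HSC difference (log2) on the x axis and -log10 of the unadjusted limma p on the y axis. Filled red points are called genes of the cell cycle lists (116, all on the right), open red points are their uncalled members, and blue diamonds are the other called genes, with Olfr65 at -2.32 farthest left.

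The arrays themselves separated for every called gene. All 3 ST-HSC arrays lay above both LT-HSC arrays for each of the 149, and below both for each of the 15. The gap between the nearest arrays of the 2 populations was 0.56 to 2.28 (median 1.06) for the higher genes and 0.62 to 1.89 for the lower genes. Separation alone was common at these numbers of arrays. It was found for 2418 genes with ST-HSC above, 13.8% of those tested, and for 1669 with ST-HSC below, 9.5%. The called genes were therefore a small subset of those without overlap.

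The counts depended on single arrays. Without LT-HSC replicate 1, 17 genes were called, and without LT-HSC replicate 3, 825. Leaving out ST-HSC replicate 1, 2 or 3 gave 109, 94 or 53 calls, and leaving out MPP replicate 3 gave 84. Without both LT-HSC replicate 1 and ST-HSC replicate 1 no gene was called by limma, and 1348 had an unadjusted p under 0.05. That fit, like those without LT-HSC replicate 1 or 3 alone, rests on a single LT-HSC array, which is assumed to vary like the others. All 149 higher and all 15 lower genes kept their direction in the fit without both arrays. This was fixed in advance because their arrays did not overlap. Their median differences in that fit were 1.25 and -1.28. The calls numbered 61 with arrays weighted by quality, 100 when the 5 HSC arrays alone were fitted, and 104 when each array was centred on its median.

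Among the called genes, 11 higher and 4 lower genes kept their call whichever of the 8 arrays was left out. The higher ones named by the rule were Ska3, Cep55, Cdc25c, Ndc80, Prc1, Ckap2, Kif20b, Ska1, Kif18b and Esco2. The lower ones were Smtnl1, Meg3, Ncam2 and Olfr65, the last of which passed the signal filter only through its LT-HSC arrays. Troap, a gene of the dividing cell, completes the 11 and was named after its values were seen. For each of these genes the highest limma adjusted p over the omissions lay close under the threshold of 0.05.

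**Figure D2:**
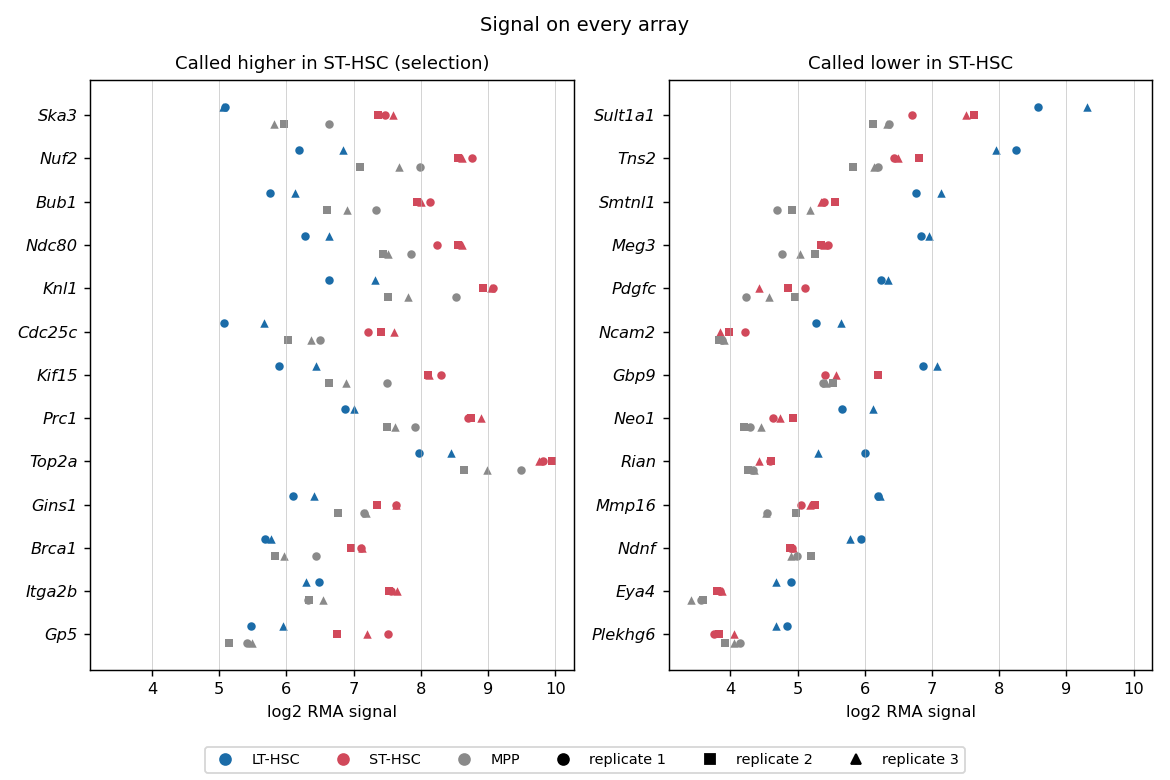
Log2 signal (x axis) on each of the 8 arrays for 13 of the genes called higher in ST-HSC (left) and 13 of the 15 called lower (right). Colour marks the population and shape the replicate number, and in every row the ST-HSC points lie on one side of both LT-HSC points.

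Ska3 showed the largest rise. Its product belongs to the SKA complex, which holds kinetochores, the protein platforms of the centromere, onto spindle microtubules. Ska3 signal was 5.09 and 5.05 in LT-HSC and 7.46, 7.37 and 7.58 in ST-HSC. The LT-HSC arrays lay within 0.1 of each other and more than 2 log2 units under every ST-HSC array. The difference was 2.40 ± 0.23 (SE), a 5.27-fold higher signal (adjusted p = 0.00401), and MPP stood between at 6.14 ± 0.43 (SD, n = 3).

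To show what these promoters share, the sequence around the transcription start is printed for the member of largest difference in 6 cell cycle lists, among genes with exactly 1 listed start. They come from RefSeq on GRCm38.p6, run from 250 bases before to 50 after the start and are read 5′ to 3′ on the gene's strand. Capitals mark CHR matches (TTTGAA or TTCGAA, on either strand) and CCAAT boxes (CCAAT or ATTGG). No E2F match was found in these windows.
Dbf4, chr5:8422667-8422966, minus strand: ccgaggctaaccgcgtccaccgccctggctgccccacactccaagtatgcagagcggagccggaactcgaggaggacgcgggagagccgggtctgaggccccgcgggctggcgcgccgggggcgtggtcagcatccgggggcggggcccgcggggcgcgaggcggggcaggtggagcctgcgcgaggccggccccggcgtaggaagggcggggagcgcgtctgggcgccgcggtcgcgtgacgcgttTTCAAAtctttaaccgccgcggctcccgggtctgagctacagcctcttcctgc
Top2a, chr11:99024140-99024439, minus strand: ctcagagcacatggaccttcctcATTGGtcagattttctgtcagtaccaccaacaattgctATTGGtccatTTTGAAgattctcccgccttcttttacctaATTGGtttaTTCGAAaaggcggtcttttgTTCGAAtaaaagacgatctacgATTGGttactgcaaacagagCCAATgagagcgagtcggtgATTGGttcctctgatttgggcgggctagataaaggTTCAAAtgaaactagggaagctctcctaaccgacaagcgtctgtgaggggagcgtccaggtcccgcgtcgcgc
Ska3, chr14:57826114-57826413, minus strand: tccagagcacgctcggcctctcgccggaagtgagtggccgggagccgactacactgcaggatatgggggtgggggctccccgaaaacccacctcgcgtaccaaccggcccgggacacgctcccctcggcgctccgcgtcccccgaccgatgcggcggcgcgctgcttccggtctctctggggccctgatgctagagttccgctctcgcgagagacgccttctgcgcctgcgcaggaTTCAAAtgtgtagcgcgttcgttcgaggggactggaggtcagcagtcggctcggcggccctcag
Bub1, chr2:127831810-127832109, minus strand: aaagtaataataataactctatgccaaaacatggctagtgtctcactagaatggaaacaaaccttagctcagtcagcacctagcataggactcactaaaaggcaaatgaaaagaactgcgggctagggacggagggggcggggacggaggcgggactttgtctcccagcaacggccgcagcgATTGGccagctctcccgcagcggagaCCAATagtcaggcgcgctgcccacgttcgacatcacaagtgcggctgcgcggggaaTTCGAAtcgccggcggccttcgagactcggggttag
Ccnb2, chr9:70421505-70421804, minus strand: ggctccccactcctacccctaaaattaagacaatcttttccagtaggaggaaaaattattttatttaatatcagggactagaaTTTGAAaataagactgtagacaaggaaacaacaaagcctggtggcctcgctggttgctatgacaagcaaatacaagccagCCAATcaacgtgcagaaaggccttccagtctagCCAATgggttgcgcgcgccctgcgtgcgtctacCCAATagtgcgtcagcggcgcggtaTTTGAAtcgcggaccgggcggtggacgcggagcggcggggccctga
Ube2c, chr2:164769679-164769978, plus strand: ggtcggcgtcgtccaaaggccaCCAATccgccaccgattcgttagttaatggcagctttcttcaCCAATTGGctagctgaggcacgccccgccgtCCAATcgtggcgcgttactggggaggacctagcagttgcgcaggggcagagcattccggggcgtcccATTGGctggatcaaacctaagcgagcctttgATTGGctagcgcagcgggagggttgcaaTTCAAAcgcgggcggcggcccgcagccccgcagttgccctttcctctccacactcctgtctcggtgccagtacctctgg

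Each of the 6 windows held at least 1 CHR match. Counted from the first transcribed base as 0, it began at -14 in Ska3, -3 in Dbf4, -29 in Ube2c and 14 in Bub1, while Ccnb2 held 2 and Top2a 4. CCAAT boxes numbered 6 in Top2a, 6 in Ube2c (2 of them overlapping), 3 in Ccnb2 and 2 in Bub1, and there were none in the windows of Ska3 and Dbf4.

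The same count was made over all genes called higher. Of the 149, 117 had exactly 1 listed start, as had 11186 of all genes tested. A CHR match was present in 53.8% of the 117 and in 15.1% of all such genes. CCAAT boxes were present in 65% against 38.3%, and both elements together in 40.2% against 6.03%. An E2F site (TTTGGCGC, TTTCGCGC, TTTGGCGG or TTTCCCGC, either strand) was found in 17.1% against 3.74%, and an SP1 site (GGGCGG, either strand) in 71.8% against 54.4%. The median GC content of the windows was 58.3% and 58.7%. Within the called genes, CHR matches were in 67.2% of 58 windows of mitotic genes and in 29.4% of 17 windows of replication and repair genes, while E2F sites were in 12.1% and 17.6%. Of the 15 genes called lower, 8 had 1 listed start, of which 1 held a CHR match and 3 a CCAAT box. These are letter matches in a fixed window, given without a test.

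The start of DNA replication was represented by 26 genes of origin licensing and firing. All 26 were positive (24 without LT-HSC replicate 1), with a median of 0.84, and 5 passed the test. For this list and those below, the shares over all genes tested were 52% positive, 0.848% called higher and 0.0853% called lower. Gmnn, which encodes the licensing inhibitor geminin, was 6.45 and 6.95 in LT-HSC and 8.54, 7.91 and 8.23 in ST-HSC, a rise of 1.53 ± 0.27 (adjusted p = 0.0233). Every ST-HSC array exceeded both LT-HSC arrays by at least 0.96. Gins1, a subunit of the replicative helicase, rose by 1.29, and Dbf4, the activator of the CDC7 kinase, by 1.25. Ticrr, needed to fire origins, rose by 1.20 and Cdc45, another helicase component, by 1.12. The helicase ring genes Mcm6 and Mcm4, the uncalled members of highest signal, had differences of 0.75 and 0.87 (adjusted p = 0.188 and 0.0827).

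Replication fork and nucleotide supply genes numbered 35, all positive, with a median of 1.01 and 11 called. Their arrays separated without exception, all ST-HSC above all LT-HSC in 35 of 35, beside 13.8% of all genes tested. Top2a, the DNA topoisomerase that untangles replicated chromosomes, was 7.98 and 8.45 in LT-HSC and 9.82, 9.95 and 9.76 in ST-HSC, a rise of 1.63 ± 0.25 (adjusted p = 0.0117). Its promoter is the one above with 4 CHR matches. Uhrf1, which recruits the maintenance DNA methyltransferase to new DNA, rose by 1.45, and the primase subunit Prim1 by 1.45. Atad2, a chromatin ATPase, rose by 1.28, the ribonucleotide reductase subunit Rrm1 by 1.28, and the clamp loader subunit Rfc2 by 1.16. Pcna, the sliding clamp, was the most abundant member, at 10.29 and 10.73 in LT-HSC and 10.98, 10.84 and 10.97 in ST-HSC. Its difference of 0.42 was not called (adjusted p = 0.423), although the arrays did not overlap.

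Across 5 lists of genes that act in mitosis, the medians were 1.26 for 32 kinetochore and centromere genes, 1.27 for 7 spindle checkpoint genes, 1.31 for 21 mitotic kinases, cyclins and phosphatases, 1.56 for 36 spindle, kinesin and centrosome genes and 1.47 for 16 cytokinesis genes. Of these, 21, 4, 16, 25 and 14 were called, and no member was negative. After quantile normalization 1 kinetochore and 1 spindle gene turned negative. Without LT-HSC replicate 1, 31 of 32, 6 of 7, 20 of 21, 35 of 36 and 16 of 16 were positive. Some genes stand in several lists.

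Of the 32 kinetochore and centromere genes, 21 were called. All ST-HSC arrays lay above all LT-HSC arrays for 30, beside 13.8% of all genes tested. Nuf2, which together with Ndc80 forms the arm that grips the microtubule, was 6.19 and 6.85 in LT-HSC and 8.76, 8.55 and 8.61 in ST-HSC. Its lowest ST-HSC array lay 1.71 above the highest LT-HSC array, and it rose by 2.12 ± 0.27 (adjusted p = 0.00574). Ndc80 was 6.28 and 6.63 in LT-HSC and 8.24, 8.55 and 8.61 in ST-HSC, a rise of 2.01 ± 0.21 (adjusted p = 0.00426). Knl1, the scaffold that docks checkpoint proteins, rose by 2.04. The centromere proteins Cenpp and Cenpk rose by 1.82 and 1.80, and the NDC80 complex subunit Spc24 by 1.80. The histone variant gene Cenpa, which marks the centromere, differed by 0.75 and was not called (adjusted p = 0.0921). Zwint overlapped between populations, with LT-HSC replicate 3 at 8.24 inside the ST-HSC range of 7.89 to 8.48.

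The spindle checkpoint delays chromosome separation until every kinetochore is attached. Bub1, a kinase of this checkpoint, was 5.75 and 6.13 in LT-HSC and 8.13, 7.94 and 8.01 in ST-HSC. The populations were 1.81 apart at their nearest arrays, and the rise was 2.09 ± 0.23 (adjusted p = 0.0043). Bub1b rose by 1.67, the kinase Ttk by 1.83 and Mad2l1 by 1.27. Bub3 and Trip13 differed by 0.83 each without passing the test.

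Among mitotic kinases and their partners, Cdc25c, the phosphatase that activates CDK1 at entry into mitosis, showed 5.07 and 5.66 in LT-HSC and 7.22, 7.41 and 7.61 in ST-HSC. It rose by 2.04 ± 0.23, a 4.12-fold higher signal (adjusted p = 0.00441). Cdk1, the kinase that drives mitosis, rose by 1.74 and its cyclin Ccnb2 by 1.80. Pbk, a mitotic kinase gene, rose by 1.91, and Aurkb, the kinase of the chromosomal passenger complex, by 1.73. Melk, another kinase of dividing cells, rose by 1.60. Wee1, which holds CDK1 inactive, differed by 0.36, and 2 of its 3 ST-HSC arrays lay between the LT-HSC arrays at 7.28 and 8.21 (adjusted p = 0.722).

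Spindle motors and binding proteins gave the largest count of calls of any list, 25 of 36. Cep55, which acts at the final cut between daughter cells and stands in the spindle and cytokinesis lists, was 4.81 and 5.90 in LT-HSC and 7.42, 7.51 and 7.68 in ST-HSC. Its LT-HSC arrays differed by over 1, yet both lay at least 1.52 below ST-HSC, and the rise was 2.18 ± 0.27 (adjusted p = 0.00574). The kinesins Kif15, Kif4 and Kif11 rose by 2.01, 1.99 and 1.88. Hmmr, Aspm and Nusap1, which organise spindle microtubules, rose by 1.95, 1.93 and 1.89. Numa1, a spindle pole protein also used in interphase nuclei, stood at 8.30 and 8.74 in LT-HSC and 8.29, 8.65 and 8.68 in ST-HSC, a difference of 0.02.

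All 16 cytokinesis genes had ST-HSC arrays above LT-HSC arrays, beside 13.8% of all genes tested, and 14 were called. Prc1, which bundles the microtubules of the central spindle, was 6.87 and 7.01 in LT-HSC and 8.70, 8.74 and 8.89 in ST-HSC. The spread within each population was under 0.2, and the rise was 1.84 ± 0.18 (adjusted p = 0.00401). Birc5, which encodes survivin, rose by 1.67, and Anln, which encodes the ring protein anillin, by 1.63. Cdca3 and Cit were the uncalled members, with differences of 1.16 and 0.83 (adjusted p = 0.0553 and 0.125).

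Of the 19 genes in the condensin and cohesin list, which also holds Mki67, 7 were called, with a list median of 0.51. Ncaph, a condensin subunit, was 6.11 and 6.12 in LT-HSC and 8.23, 7.63 and 7.85 in ST-HSC, a rise of 1.79 ± 0.23 (adjusted p = 0.00574). Ncapg2 and Smc2, also of condensin, rose by 1.54 and 1.46. Esco2, which acetylates cohesin during S phase, rose by 1.63 and Cdca5, which stabilises it, by 1.60. Mki67, whose product coats mitotic chromosomes and is the usual marker of proliferating cells, was 8.27 and 8.49 in LT-HSC and 10.09, 9.76 and 9.81 in ST-HSC, a rise of 1.51 ± 0.21 (adjusted p = 0.00717). The cohesin ring genes Smc1a and Rad21, present at every stage of the cycle, differed by 0.22 and 0.44 and were not called.

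The anaphase promoting complex is a ubiquitin ligase that ends mitosis. Its list of 20 had a median of 0.36, with 19 positive and 4 called. The 4 were Ube2c, Cdc20, Fbxo5 and Ube2s, with rises of 1.76, 1.60, 1.16 and 1.03: 2 enzymes that feed it ubiquitin, an activator and an inhibitor. Ube2c was 7.66 and 7.48 in LT-HSC and 9.33, 9.25 and 9.41 in ST-HSC, a separation of 1.59 at the nearest arrays. The core subunits of highest signal, Anapc13 and Anapc5, differed by 0.31 each (adjusted p = 0.543 and 0.563).

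The list of histone genes transcribed in S phase gave 12 positive differences of 16, and 3 calls. H2ac10, a histone gene outside the list and outside the naming rule, was also called higher, by 1.10 (adjusted p = 0.0238). The linker histone gene H1f1 was 5.71 and 5.91 in LT-HSC and 7.70, 8.03 and 8.10 in ST-HSC, a rise of 2.13 ± 0.28 (adjusted p = 0.00617). H1f5 rose by 1.62 and H2bc18 by 1.65, while H1f2, another linker histone gene, was 9.36 and 9.33 in LT-HSC and 8.72, 9.19 and 9.41 in ST-HSC and was not called. H2ac21 had the largest difference of any gene not called, 2.13 ± 0.43 (adjusted p = 0.0518). Histone genes are near copies of one another, so a probe set may take signal from several, and 27 of the list's 44 symbols had no match in the annotation.

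Of 32 homologous recombination and Fanconi anemia genes, which repair broken and crosslinked DNA, 31 were positive and 8 were called (median 0.86). Brca1 was 5.68 and 5.77 in LT-HSC and 7.11, 6.96 and 7.12 in ST-HSC, a rise of 1.34 ± 0.20 (adjusted p = 0.0117). Its partners Bard1 and Brip1 rose by 1.18 and 1.45. Neil3, a glycosylase that unhooks crosslinks, rose by 1.57, Rad51ap1 by 1.38 and Fancb by 1.00. Topbp1 and Atrip, of the replication checkpoint, differed by 0.57 and 0.22 and were not called.

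The 24 G1 cyclins, E2F factors and pocket proteins, which govern the phase before replication, had a median of 0.57, and 2 were called, the atypical E2F repressors E2f8 and E2f7. E2f8 was 6.29 and 6.46 in LT-HSC and 8.31, 7.96 and 8.09 in ST-HSC, a rise of 1.74 ± 0.31 (adjusted p = 0.0238). E2f7 rose by 1.28. Cdk6, a G1 kinase known to set how fast HSC leave rest, was 7.85 and 9.14 in LT-HSC and 9.57, 9.83 and 9.67 in ST-HSC, a difference of 1.19 ± 0.30 that was not called (adjusted p = 0.132). It was 1.83 against LT-HSC replicate 1 and 0.54 against replicate 3. Ccnd2, the cyclin gene of highest signal in the list, was 9.57 and 9.59 in LT-HSC and 8.93, 9.29 and 9.47 in ST-HSC, a difference of -0.35 that was not called.

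Of 25 CDK inhibitors and quiescence regulators, which hold cells at rest, 2 were called higher and none lower. Their median was -0.04 with 11 positive, 0.07 with arrays centred on their medians and -0.12 after quantile normalization. Leaving out LT-HSC replicate 1 gave -0.28 with 7 positive and leaving out replicate 3 gave 0.14 with 15 positive, so its sign depended on the LT-HSC array used. Both calls were upward, and both genes are known from cycling cells. Cdkn3, a phosphatase that acts on CDKs, was 5.77 and 6.70 in LT-HSC and 8.24, 7.90 and 8.28 in ST-HSC, a rise of 1.91 ± 0.31 (adjusted p = 0.015). Cdkn2c, which encodes the CDK4 and CDK6 inhibitor p18, rose by 1.35 ± 0.27 (adjusted p = 0.0468). Nr4a1 and Egr1, transcription factors linked to HSC rest and induced within minutes of cell handling, had differences of -0.53 and -0.36. Nr4a1 was 10.75 and 11.53 in LT-HSC and 9.62, 11.37 and 10.83 in ST-HSC, and the populations overlapped.

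**Figure D3:**
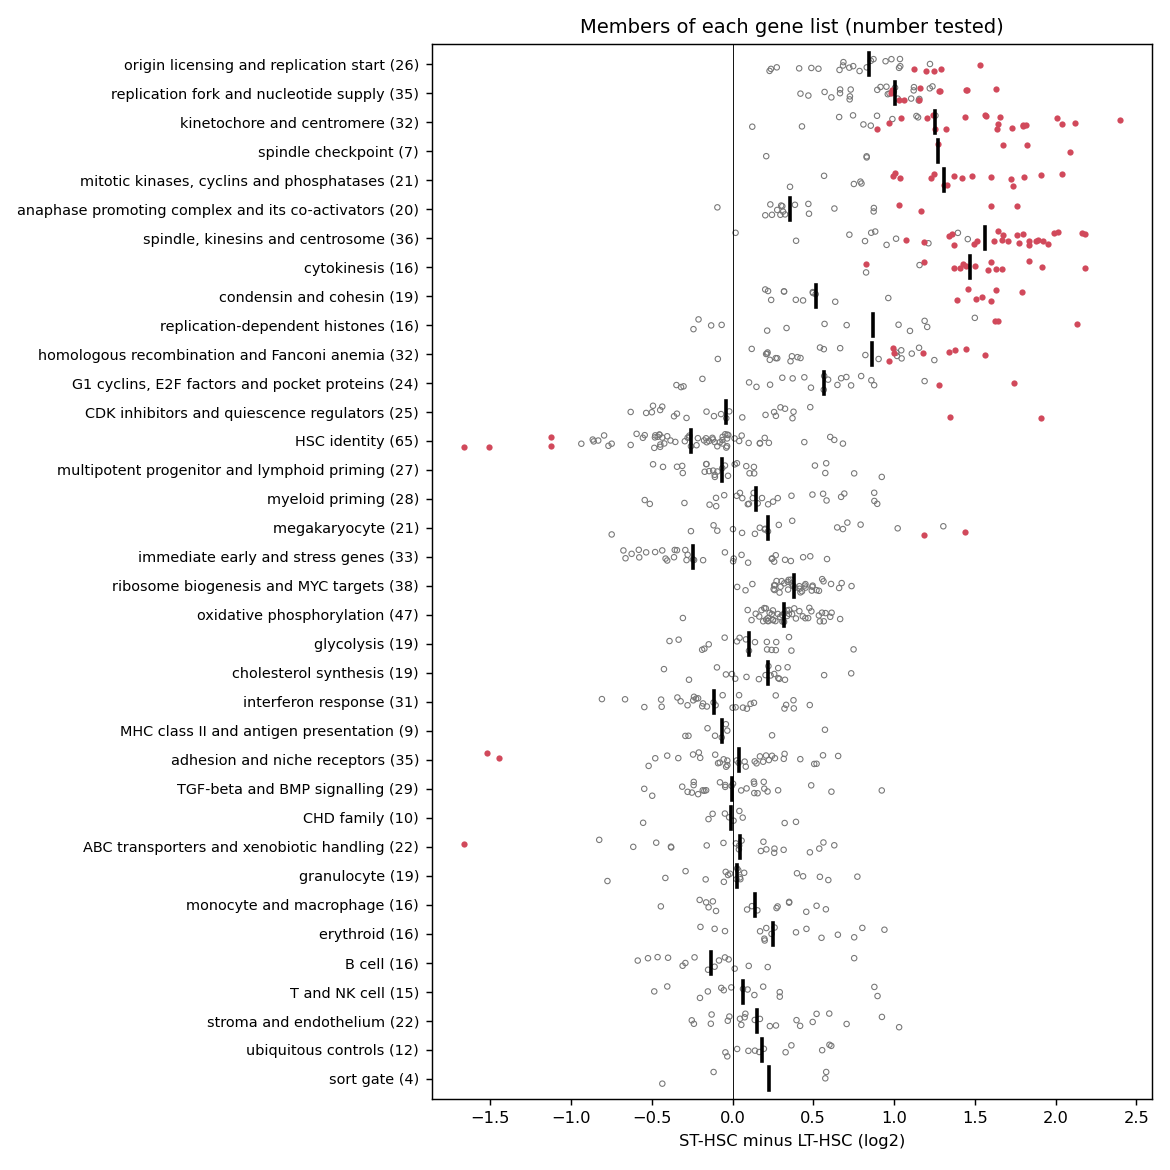
ST-HSC minus LT-HSC difference (log2, x axis) of every tested member of the 36 gene lists, with the number tested beside each name. Red points are called genes, open points are not called, and the black bar is the list median, which runs from -0.26 for HSC identity genes to 1.56 for spindle genes.

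A further 29 genes called higher stood in no list. Several are known from dividing cells. Prr11, whose product is made in late cell cycle, was 6.14 and 6.63 in LT-HSC and 8.51, 8.15 and 8.38 in ST-HSC, a rise of 1.96 ± 0.23 (adjusted p = 0.00557). Aunip, an AURKA partner, rose by 1.82, Parpbp, a recombination regulator, by 1.74, Cip2a, a phosphatase inhibitor, by 1.67, and Knstrn, a spindle protein, by 1.57. Zgrf1, a helicase of DNA repair, rose by 1.38, and Donson, a replication fork protein, by 1.28.

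Others outside the lists have different roles. Mfsd2b, which exports sphingosine-1-phosphate from platelets and red cells, was 6.34 and 6.06 in LT-HSC and 7.43, 7.61 and 7.55 in ST-HSC, a rise of 1.33 ± 0.23 (adjusted p = 0.0219). MPP lay lower than both, at 5.84 ± 0.40 (SD, n = 3). Ptn, which encodes the growth factor pleiotrophin, rose by 1.32, Pde5a, a cyclic GMP phosphodiesterase, by 1.28, and Zdhhc2, a palmitoyltransferase, by 1.25. Omd and Pmch, a matrix protein and a neuropeptide precursor, rose by 1.34 and 1.31. Omd was 3.72 and 3.33 in LT-HSC and 4.91, 4.72 and 4.96 in ST-HSC. Its mean over the LT-HSC and MPP arrays, 3.84, was under the threshold of 3.88 for low signals, so it passed this filter on the mean of all 8 arrays only through its ST-HSC arrays, as no other gene of the 149 did. In the RefSeq annotation Omd lies inside the gene Cenpp and Pmch overlaps Parpbp, both called higher, so the signals of these overlapping genes cannot be told apart here.

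Of 21 megakaryocyte and platelet genes tested, 17 were positive with a median of 0.22, and 2 were called. Itga2b, which encodes the platelet integrin subunit CD41, was 6.48 and 6.30 in LT-HSC and 7.55, 7.52 and 7.64 in ST-HSC. The ST-HSC arrays lay within 0.2 of each other and at least 1.04 above LT-HSC, and the rise was 1.18 ± 0.17 (adjusted p = 0.00814). Gp5, a subunit of the platelet receptor for von Willebrand factor, was 5.48 and 5.95 in LT-HSC and 7.51, 6.76 and 7.20 in ST-HSC, a rise of 1.44 ± 0.24 (adjusted p = 0.0194). In MPP both stood at the LT-HSC level or under it, 6.40 ± 0.13 and 5.35 ± 0.18 (SD, n = 3). Plek, a platelet signalling protein, had a difference of 1.02 that was not called, being 7.26 on LT-HSC replicate 1 but 8.98 on replicate 3, inside the ST-HSC range. Neither Itga2b nor Gp5 was called without LT-HSC replicate 1.

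The 15 genes called lower in ST-HSC had smaller numbers and no common list. They comprised 4 of 65 HSC identity genes, 2 of 35 adhesion and niche receptors, 9 genes in no list, and Sult1a1 counted again under xenobiotic handling. Sult1a1, a sulfotransferase known as an LT-HSC marker, was 8.57 and 9.31 in LT-HSC and 6.71, 7.62 and 7.51 in ST-HSC. The populations were 0.95 apart at their nearest arrays, and the difference was -1.66 ± 0.29 (adjusted p = 0.0238). In MPP it was lower still, at 6.27 ± 0.14 (SD, n = 3).

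Meg3 and Rian are noncoding RNAs of the imprinted Dlk1-Dio3 region, transcribed from the maternal chromosome and known from LT-HSC. Meg3 was 6.84 and 6.96 in LT-HSC and 5.45, 5.35 and 5.40 in ST-HSC. Both populations were tight, 1.40 apart, and the fall was 1.50 ± 0.18 in size, a 2.84-fold lower signal (adjusted p = 0.00574). Rian, its neighbour in the RefSeq annotation, was 6.01 and 5.31 in LT-HSC and 4.58, 4.60 and 4.42 in ST-HSC, a difference of -1.12 ± 0.21 (adjusted p = 0.0341). LT-HSC replicate 1 carried more Rian than replicate 3, and the difference was -0.77 against replicate 3 alone. Neo1, a receptor for netrins and RGM proteins, was the remaining HSC identity gene called, 5.66 and 6.12 in LT-HSC against 4.63, 4.93 and 4.73 in ST-HSC (-1.12 ± 0.19, adjusted p = 0.0223).

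Tns2, which links integrins to actin, was 8.25 and 7.95 in LT-HSC and 6.44, 6.81 and 6.49 in ST-HSC, a difference of -1.52 ± 0.20 (adjusted p = 0.00603). Ncam2, a neural cell adhesion molecule, was 5.27 and 5.64 in LT-HSC and 4.22, 3.97 and 3.84 in ST-HSC, a difference of -1.45 ± 0.19 (adjusted p = 0.00574). Its ST-HSC signals stood near the threshold of 3.88 for low signals, as did its MPP mean of 3.86. Smtnl1, a smoothelin-like muscle protein, was 6.76 and 7.14 in LT-HSC and 5.39, 5.55 and 5.35 in ST-HSC, a difference of -1.52 ± 0.20 (adjusted p = 0.00617).

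The remaining genes called lower were Pdgfc, a platelet-derived growth factor (-1.50), Gbp9, an interferon-induced GTPase (-1.25), Mmp16, a membrane-bound protease (-1.04), Ndnf, a secreted glycoprotein (-0.96), Eya4, a phosphatase and transcription coactivator (-0.95), and Plekhg6 (-0.88). Olfr65 and Gm4951, named outside the rule because they complete the 15, had differences of -2.32 and -1.15. Olfr65, an olfactory receptor gene, was 6.16 and 5.50 in LT-HSC and 3.58, 3.35 and 3.61 in ST-HSC. Its ST-HSC signals were under the threshold for low signals, so it passed the filter only through its LT-HSC arrays, and it had the largest difference in size among the 15. Eya4, at 3.84, 3.80 and 3.88 in ST-HSC and at a mean of 3.53 in MPP, also passed the filter only through its LT-HSC arrays. Gbp9 and Olfr65 belong to families of similar genes, so their probe sets may take signal from relatives.

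Of the 65 HSC identity genes tested, 4 were called lower and none higher, beside 0.0853% and 0.848% of all genes tested. Their median was -0.26 beside 0.02 over all genes, and 12 were positive. The median was -0.15 with arrays centred on their medians and -0.35 after quantile normalization. With LT-HSC replicate 1 left out it was -0.39, with LT-HSC replicate 3 left out -0.13, and with ST-HSC replicate 1 left out -0.10 with 26 positive. Relative to the mean of all 8 arrays the list stood at 0.14 and 0.43 in LT-HSC and at -0.29, 0.10 and 0.16 in ST-HSC, so ST-HSC replicate 1 alone was below 0 among the HSC arrays. The arrays did not overlap for 23 members with ST-HSC below and for 2 with ST-HSC above. Over all genes tested these shares were 9.5% and 13.8%. Ly6e and Ifitm3, the members of highest signal, differed by -0.06 and -0.18. Chd7, the chromatin remodeler the series is named for, was 5.66 and 5.81 in LT-HSC and 5.16, 5.20 and 5.18 in ST-HSC. Its arrays did not overlap, and the difference of -0.55 ± 0.16 was not called (adjusted p = 0.186).

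No member of the ribosome biogenesis or oxidative phosphorylation list was called. All 38 ribosome biogenesis genes were positive, with a median of 0.38 (37 after quantile normalization, 34 without LT-HSC replicate 1). Of 47 oxidative phosphorylation genes 46 were positive, with a median of 0.32 (41 positive without LT-HSC replicate 1). Dkc1, of the telomerase and small RNA machinery, differed by 0.74 and Ddx21, a nucleolar helicase, by 0.68. Cycs, which encodes cytochrome c, differed by 0.67. The medians fell to 0.19 and 0.17 against LT-HSC replicate 3 alone and were 0.57 and 0.45 against replicate 1 alone. The 12 ubiquitous control genes had a median of 0.18.

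Priming and signalling lists gave no call. The medians were -0.06 for 27 progenitor and lymphoid priming genes, 0.14 for 28 myeloid priming genes, 0.10 for 19 glycolysis genes, 0.22 for 19 cholesterol synthesis genes, -0.12 for 31 interferon response genes, -0.07 for 9 antigen presentation genes and -0.01 for both 29 TGF-beta and BMP genes and 10 CHD genes. Centring each array on its median moved the median of all genes from 0.02 to 0.13 and turned the medians of the progenitor, antigen presentation, TGF-beta and CHD lists positive, at 0.05, 0.04, 0.11 and 0.10. Without LT-HSC replicate 1 these medians were -0.30, -0.36, -0.21 and -0.24. Among 22 ABC transporter and xenobiotic genes Sult1a1 alone was called. Immediate early and stress genes, which respond to cell handling, had a median of -0.24 over 33 members with no call, from 0.24 against LT-HSC replicate 1 to -0.65 against replicate 3, and it was 0.08 without ST-HSC replicate 1.

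Outside the lists' calls, the genes of largest uncalled fall were Pygm (-1.39), Chil5 (-1.32), Gbp8 (-1.26), Zscan4b (-1.11) and Gimap3 (-1.10). Pygm, muscle glycogen phosphorylase, was 5.90 and 6.84 in LT-HSC and 4.04, 5.36 and 5.54 in ST-HSC. These arrays did not overlap either, but they spread over more than 0.9 within each population (adjusted p = 0.223). Those of largest uncalled rise after H2ac21 were Lrr1, a replisome disassembly factor (1.66), Mnd1, a recombination factor (1.55), H2bc12 (1.50) and the kinesin Kifc1 (1.46).

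No member of the granulocyte, monocyte, erythroid, B cell, T and NK cell or stroma lists was called. The mean log2 signal of 19 granulocyte genes was 6.98 and 5.28 in LT-HSC and 7.28, 5.80 and 5.51 in ST-HSC, and 6.68, 5.78 and 5.88 in MPP, so replicate 1 of each population was the highest. S100a8, a major granulocyte protein, was 11.09 and 6.61 in LT-HSC and 11.29, 9.32 and 8.26 in ST-HSC. The mean of 22 stroma and endothelium genes was 5.65 and 5.26 in LT-HSC and 6.52, 5.29 and 5.29 in ST-HSC. Ibsp, a bone matrix protein, was 7.54 on ST-HSC replicate 1 and 4.06 to 4.63 on the other HSC arrays, and Cxcl12, the niche chemokine, was 8.14 against 5.33 to 5.95. The mean of 16 erythroid genes was 6.91 and 6.71 in LT-HSC and 7.78, 6.71 and 6.96 in ST-HSC.

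Means of 16 monocyte and macrophage genes ran from 5.64 to 6.05 in LT-HSC and from 5.68 to 6.41 in ST-HSC. Those of 16 B cell genes ran from 5.89 to 5.97 and from 5.62 to 6.01, and those of 15 T and NK cell genes from 5.31 to 5.46 and from 5.41 to 5.52. Array signals have no 0, so absence of a marker cannot be read from them. Spindle genes averaged 6.09 and 6.47 in LT-HSC, 7.77, 7.70 and 7.76 in ST-HSC and 7.28, 6.67 and 6.92 in MPP. Licensing genes averaged 6.94 and 7.15 in LT-HSC, 7.94, 7.78 and 7.91 in ST-HSC and 7.75, 7.22 and 7.44 in MPP. Replicate 1 was thus the highest ST-HSC and the highest MPP array for both lists, and the lowest LT-HSC array. The part of other cell types in the results was not tested.

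**Figure D4:**
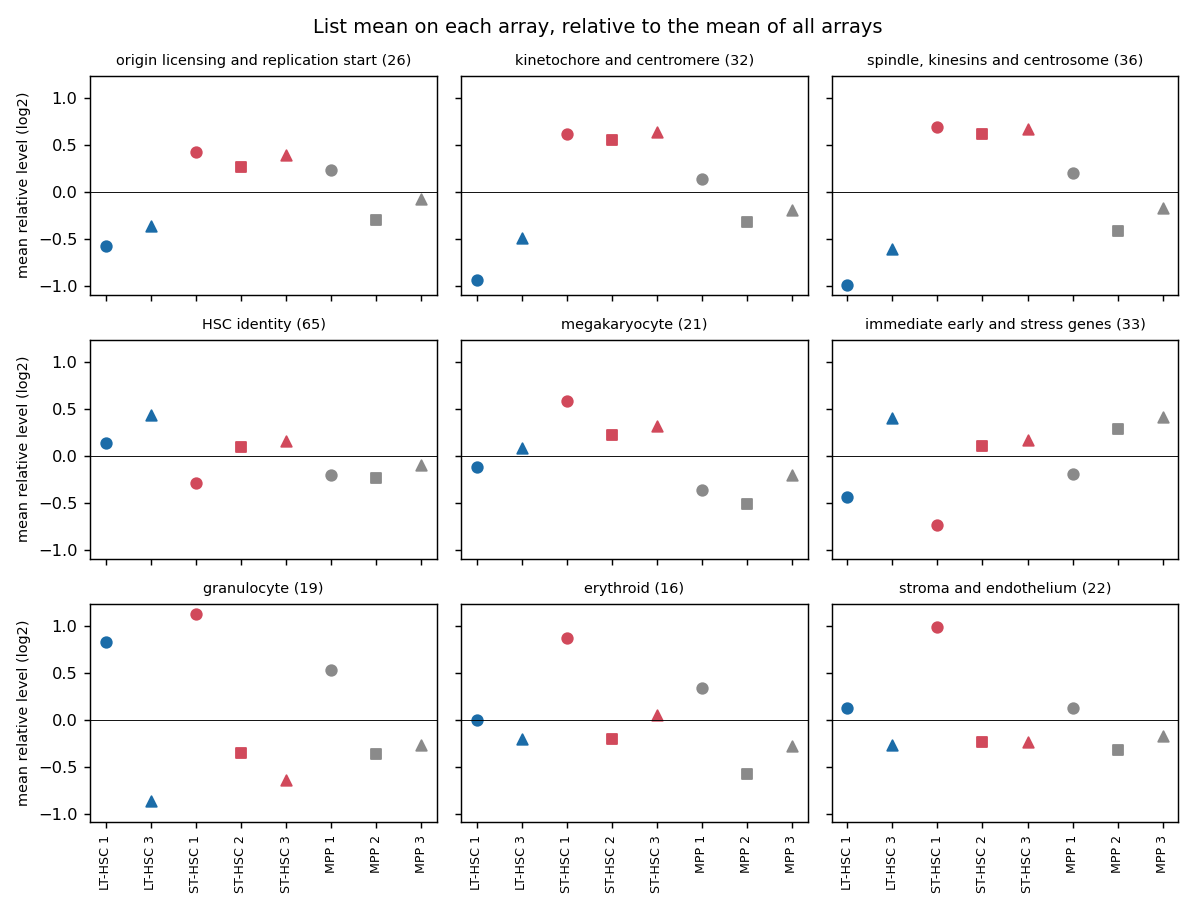
Mean log2 level of each list's members on each array, relative to the mean of all 8 arrays (y axis), for 9 lists. Licensing, kinetochore and spindle genes are above 0 on all ST-HSC arrays and below 0 on both LT-HSC arrays, while granulocyte and stroma genes stand high on ST-HSC replicate 1.

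The LT-HSC arrays did not contribute equally. Against LT-HSC replicate 1 the called higher genes had a median difference of 1.61, and against replicate 3 it was 1.27. For 122 of the 149 the difference was larger against replicate 1. For the called lower genes the medians were -1.26 and -1.35. The calls within lists fell with them: without LT-HSC replicate 1 the kinetochore list had 3 calls in place of 21, the spindle list 5 in place of 25, the cytokinesis list 4 in place of 14, the condensin and cohesin list 2 in place of 7 and the mitotic kinase list 1 in place of 16, and the other 7 cell cycle lists had none. Without ST-HSC replicate 1 the kinetochore and spindle lists had 15 and 21 calls. Without both arrays no list had a call, while the medians of the 12 cell cycle lists ran from 0.24 to 1.41. Ska3 was 2.38 above replicate 1 and 2.42 above replicate 3, whereas Cep55 was 2.72 and 1.64 above them. Spindle genes had list medians of 1.76 and 1.41, kinetochore genes 1.53 and 1.15, and condensin and cohesin genes 0.88 and 0.18. Without LT-HSC replicate 1, 12 of the 149 and 4 of the 15 remained called, and without replicate 3, 145 and 12.

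**Figure D5:**
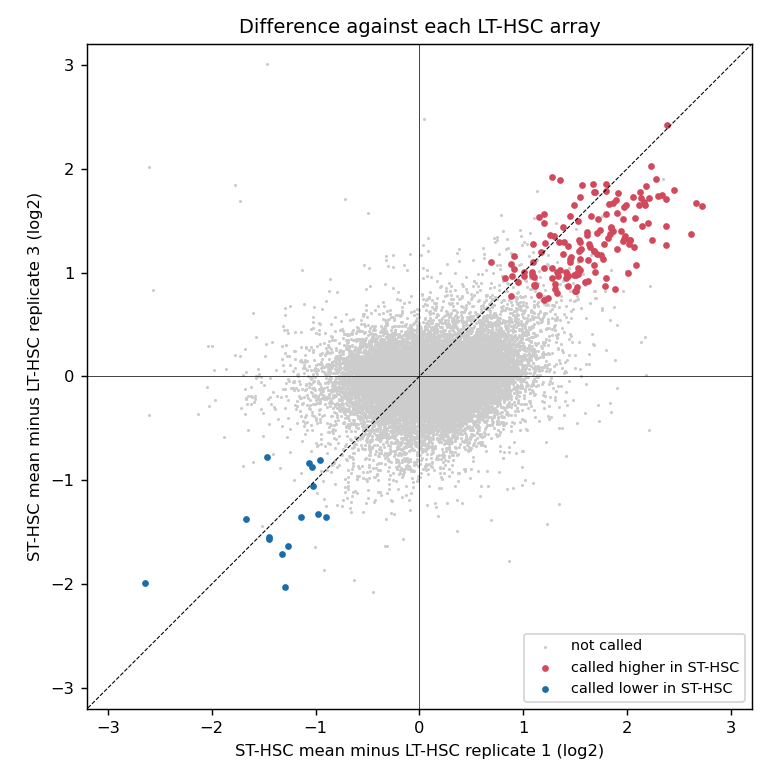
Mean of the 3 ST-HSC arrays minus LT-HSC replicate 1 (x axis) and minus LT-HSC replicate 3 (y axis), both log2, for every tested gene. Red points are genes called higher in ST-HSC and blue points genes called lower; they lie in the upper right and lower left, and 122 of the 149 red ones are farther from 0 along the x axis than along the y axis.

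MPP gave a reference outside the comparison. Over the 149 genes called higher, the median signal was 6.25 in LT-HSC, 7.81 in ST-HSC and 6.99 in MPP. Over the 15 called lower it was 6.21, 4.91 and 4.68. These genes were selected for their difference between ST-HSC and LT-HSC, and the MPP differences share those arrays, so the medians are given as levels only. Mki67 was 9.03 ± 0.29 (SD, n = 3) in MPP, between its LT-HSC and ST-HSC arrays, and Meg3 was 5.02 ± 0.24, under both.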

How the data were processed

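Per the submitters' processing notes the deposited values were made with RMA (version not given in the sources used here). Deposited by the authors was a table of log2 signals for 33649 probe sets on 8 arrays, from RNA that, per the labels, was extracted with Trizol and amplified with the Ovation Pico WTA V2 kit before biotin labelling. That these are log2 values was inferred from their range (2.055 to 12.938), since no source states it. RMA equalises arrays, so a change in total RNA would not show, and it compresses differences of dim probe sets. Precision is limited by how few arrays there are.

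Probe sets were named through the platform's annotation table: 23521 probe sets had 1 symbol, 1814 several and 8314 none. Of 22180 genes, 4604 below the 25th percentile of signal were left out. Groups came from sample titles. Differences were tested with limma 3.58.1 (R 4.3.3; lmFit and eBayes) with a mean per population over all 8 arrays (residual degrees of freedom 5, prior 5.93), and Benjamini-Hochberg adjustment ran over 17576 genes. Errors of differences are standard errors from this model. The fit was tested on simulated data. Promoter sequences came from RefSeq on GRCm38.p6.

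The comparison, the 36 gene lists (881 of 982 entries matched, 862 tested) and the naming rule were chosen with earlier results of these data known. The rule named all genes called lower if at most 30; the 30 largest called higher without overlap; per list up to 6 called members by size and 2 uncalled by mean signal, and for lists with no call the 2 of highest signal and 2 of largest difference; the sort gate genes and Chd7; up to 15 called genes in no list; the 5 largest uncalled in each direction; and up to 10 called genes kept under every omission of 1 array. Outside the list and gate parts the rule skipped olfactory and vomeronasal receptor genes, antigen receptor segments, clones, small RNAs and predicted genes. Alternatives covered normalization, filter, arrays, weights, variance trend, probe set choice, replicate blocks and omissions.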

Additional observations from a re-analysis of the deposited data

How the results depend on the processing

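Of the 97 named genes that were called, none changed direction in any of 20 alternative settings. Their arrays did not overlap, so settings that only omitted or weighted arrays, or changed the filter or variance trend, could not turn it. All 97 lost the call in some setting. Of the 110 named genes that were not called, 40 changed sign in some setting and 33 were called in some. The calls numbered 164 (149 higher, 15 lower). Median centring gave 104 (98 and 6), the 5 HSC arrays alone 100 (94 and 6) and array weights 61 (56 and 5), and quantile normalization gave 26 lower calls. Dropping the filter, filtering at the 50th percentile, an intensity trend and averaging probe sets gave 145, 179, 149 and 166 calls. Of the main calls, 103 were shared with median centring and 148 with quantile normalization. Leaving out 1 array gave 17 to 825 calls, 12 to 689 of them higher and 5 to 136 lower, and 5124 to 11994 genes without overlap beside 4087, since fewer arrays separate more easily. Without LT-HSC replicate 1 and ST-HSC replicate 1 limma made 0 calls, 0 higher and 0 lower, with 1348 genes at an unadjusted p under 0.05 and 12572 without overlap. Leaving out the replicate 1 arrays of all populations, an alternative chosen after seeing the data, gave 70 calls (53 and 17), and 58 of the main calls were among them. The cause of these changes was not tested. Signal over background was not analysed here.

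LT-HSC and ST-HSC share only replicate numbers 1 and 3. The deviations of same-numbered arrays from their population means correlated at 0.54 and 0.48 over genes, and 2 pairs are too few to show that the numbers pair the samples. With the replicate block as a fixed term 473 genes were called (397 higher, 76 lower), and as a random term 227 (201 and 26, consensus correlation 0.114). All 164 main calls were shared with each of these fits.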

Other observations

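Genes of the HSC identity and megakaryocyte lists outside the naming rule, picked after their values were seen, stood as follows. They do not stand for their lists, in which 12 of 65 and 17 of 21 members were positive. Over all genes tested, arrays did not overlap for 9.5% with ST-HSC below and for 13.8% with ST-HSC above. Procr, the surface receptor EPCR used to sort HSC, was 8.25 and 8.80 in LT-HSC and 7.24, 7.85 and 7.68 in ST-HSC, so the arrays did not overlap, and the difference of -0.94 ± 0.24 was not called (limma adjusted p = 0.131). Mllt3, a transcription elongation factor known to maintain HSC, was 9.23 and 9.47 in LT-HSC and 8.37, 8.71 and 8.67 in ST-HSC, also without overlap, with a difference of -0.77 ± 0.18 that was not called. The transcription factor Mecom was 8.62 and 8.83 in LT-HSC and 7.16, 8.32 and 8.31 in ST-HSC, with ST-HSC replicate 1 the lowest, and was not called. Vwf, which encodes von Willebrand factor, was 7.20 and 7.22 in LT-HSC and 6.91, 6.27 and 6.20 in ST-HSC. Its arrays did not overlap, but Vwf was not called, whereas Gp5, a subunit of its platelet receptor, was called higher. Pf4, a platelet chemokine, was 7.12 and 8.09 in LT-HSC and 9.27, 8.71 and 8.73 in ST-HSC, a difference of 1.31 ± 0.35 that was not called.

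Of 4 further imprinted genes, also picked after their values were seen, none was called. Ndn was 7.10 on both LT-HSC arrays and 6.33, 6.28 and 6.80 in ST-HSC. Cdkn1c, which encodes the CDK inhibitor p57, was 6.26 and 6.49 in LT-HSC and 5.64, 5.91 and 6.23 in ST-HSC. Both were without overlap, as were 9.5% of all genes tested with ST-HSC below, and the nearest Cdkn1c arrays stood at 6.26 and 6.23. Dlk1, the protein-coding neighbour of Meg3, lay between 4.22 and 4.53 on the 5 arrays, and Igf2 between 4.50 and 4.91, with both populations overlapping.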
